A study of Homo sapiens with 5 samples.

Results

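The major histocompatibility region on the short arm of chromosome 6 (6p21) was taken as positions 28900001 to 33400000 of hg19, and its members were the deposited ChIP-seq peaks whose centre lay between these positions. In ChIP-seq, an antibody pulls down a protein together with the DNA it sits on, that DNA is sequenced, and a peak is a place with more fragments than in an input control. The members numbered 445 of the 94237 ASXL1 peaks, 74 of the 21697 FOXK1 peaks and 268 of the 78825 O-GlcNAc peaks, which came to 787 of 194759 peaks in all. The region was divided by position into class I (28900001 to 31500000), class III (31500001 to 32200000), class II (32200001 to 33100000) and a gene-rich end (33100001 to 33400000). The cells were Flp-In HEK293 T-REx, a line derived from human embryonic kidney cells that carries a recombination site for inserting transgenes and a tetracycline repressor, and no treatment is named in the labels. Each antibody had 1 library and there were 2 input libraries, so no difference between antibodies has a replicate check. ASXL1 (antibody sc85283) and O-GlcNAc (antibody HGAC85) were precipitated from chromatin preparation 63 and called against its input, and FOXK1 (antibody ab18196) from preparation 62 with the input of that preparation. FOXK1 therefore cannot be told apart from its preparation, and the ASXL1 and O-GlcNAc lists share a control.

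The region holds the genes that present antigens to T cells and is among the most gene-dense parts of the human genome. Class I genes such as HLA-B and HLA-C encode surface proteins that show peptides from inside the cell to CD8+ T cells, and most cell types express them. Class II genes such as HLA-DRA and HLA-DQB1 present peptides from outside the cell and are mainly active in immune cells, and their stretch also holds TAP1, TAP2, PSMB8 and PSMB9, which make and move the peptides of class I. Class III holds complement genes (C2, CFB), TNF and its relatives, heat shock genes (HSPA1A, HSPA1B) and many genes that all cells use. ASXL1 is a partner of BAP1, the enzyme that removes ubiquitin from histone H2A, FOXK1 is a forkhead transcription factor, and O-GlcNAc is a sugar that the enzyme OGT attaches to serine and threonine residues of nuclear proteins.

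In gene order, the 3 classes hold different kinds of genes. The RefSeq table of assembly GRCh38.p14 lists 69 protein-coding genes from ZNF311 to MICB (class I), of which 14 are olfactory receptor genes and 6 are HLA genes, beside 81 pseudogenes. It lists 58 protein-coding genes from DDX39B to NOTCH4 (class III) and 20 from TSBP1 to HLA-DPB1 (class II), of which 13 are HLA genes. The peaks are on hg19, so no gene of that table was tied to a peak, and positions are given without a gene.

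All 3 lists were denser in the histocompatibility region than along the rest of the genome. ASXL1 had 98.9 peaks per Mb there (95% Poisson interval 89.9 to 109), against 38.8 on the rest of chromosome 6 and 31.0 over chromosomes 1 to 22 and X. O-GlcNAc had 59.6 peaks per Mb (52.6 to 67.1), against 40.3 and 25.9. FOXK1 had 16.4 peaks per Mb (12.9 to 20.6), against 11.2 and 7.08. Relative to the rest of chromosomes 1 to 22 and X, the density was 3.20 times as high for ASXL1 (95% interval 2.91 to 3.51), 2.33 times for FOXK1 (1.83 to 2.92) and 2.30 times for O-GlcNAc (2.03 to 2.59). With peaks closer than 1000 bp counted as 1, ASXL1 had 62.4 peaks per Mb and the ratios were 2.61 (2.31 to 2.93), 2.34 (1.82 to 2.96) and 2.27 (1.99 to 2.57), with overlapping intervals. Relative to the rest of chromosome 6 the excess was smaller, at 2.55 times for ASXL1 (2.31 to 2.80), 1.47 times for FOXK1 (1.146 to 1.85) and 1.48 times for O-GlcNAc (1.30 to 1.67). Peaks are not replicates, and the fragments were amplified without molecular identifiers named in the labels, so these and all later intervals cover counting error only.

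On a grid of 661 stretches of the same 4.5 Mb length, 6 stretches (0.908%) were denser than the histocompatibility region in ASXL1 peaks, 9 (1.36%) in O-GlcNAc peaks and 24 (3.63%) in FOXK1 peaks. Peaks in the region were also wider than in their list as a whole. The median width was 443 bp for ASXL1 against 269 bp over chromosomes 1 to 22 and X, 597 bp against 436 bp for FOXK1, and 318.5 bp against 231 bp for O-GlcNAc. ASXL1 peaks covered 6.41% of the bases of the region against 1.31% of chromosomes 1 to 22 and X. O-GlcNAc peaks covered 2.93% against 0.825%, and FOXK1 peaks 1.18% against 0.385%.

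The ASXL1 peaks were distributed unevenly over the classes, more densely in class III and the gene-rich end than in class I, and least densely in class II. Class III takes up 15.6% of the region's length and held 27.6% of its ASXL1 peaks, whereas class II takes up 20.0% and held 10.8%. The ASXL1 density was 89.2 peaks per Mb in class I (78.1 to 101, 232 peaks), 176 in class III (146 to 210, 123 peaks), 53.3 in class II (39.3 to 70.7, 48 peaks) and 140 in the gene-rich end (100.9 to 189, 42 peaks). Class III thus had 1.97 times the ASXL1 density of class I (1.57 to 2.46) and 3.29 times that of class II (2.34 to 4.70). Class III and the gene-rich end did not separate, with a ratio of 1.26 (0.878 to 1.83), and 0.995 (0.630 to 1.61) among peaks with a score of at least 100. Class II had 0.598 times the density of class I (0.429 to 0.819), and it remained above the rest of chromosomes 1 to 22 and X, at 1.73 times (1.27 to 2.29). The gene-rich end had 1.57 times the ASXL1 density of class I (1.10 to 2.19), but 1.35 times (0.840 to 2.09) where ASXL1 peaks closer than 1000 bp were counted as 1.

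O-GlcNAc peaks did not follow this order when all were counted. Their density was 56.2 peaks per Mb in class I (47.4 to 66.0, 146 peaks), 58.6 in class III (42.0 to 79.5, 41 peaks) and 56.7 in class II (42.2 to 74.5, 51 peaks), and the class III to class I ratio was 1.04 (0.719 to 1.48). The gene-rich end was denser, at 100 peaks per Mb (67.5 to 143, 30 peaks) and 1.78 times class I (1.16 to 2.65). Among O-GlcNAc peaks with a score of at least 100, class III separated from class I and class II. The gene-rich end then had 53.3 peaks per Mb, class III 38.6, class I 17.3 and class II 8.89, which made class III 2.23 times as dense as class I (1.33 to 3.67) and 4.34 times as dense as class II (1.92 to 11.1). Class II did not separate from class I (0.514, 0.209 to 1.10), nor class III from the gene-rich end (0.723, 0.376 to 1.44). The score is the peak caller's own measure of strength, a log-scaled form of a p-value that starts at 50, and it is used here only to rank or filter peaks within a list.

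The balance between the ASXL1 and O-GlcNAc lists therefore moved along the region. There were 3.00 ASXL1 peaks per O-GlcNAc peak in class III (2.09 to 4.38), 1.59 in class I (1.29 to 1.97), 1.4 in the gene-rich end (0.856 to 2.32) and 0.941 in class II (0.621 to 1.42). On the rest of chromosome 6 the ratio was 0.964, and over chromosomes 1 to 22 and X it was 1.196. These ratios count peaks as listed. With peaks closer than 1000 bp counted as 1, the region held 281 ASXL1 and 239 O-GlcNAc peaks, against 445 and 268. The ratio per stretch was not computed in that setting. Among peaks that scored 100 or more the ratios were closer. They were 2.41 in class III (1.52 to 3.92), 2.49 in class I (1.75 to 3.60), 1.75 in the gene-rich end (0.915 to 3.46) and 2.63 in class II (1.12 to 6.85). At that score the ratio was 1.57 on the rest of chromosome 6. Over chromosomes 1 to 22 and X it was 1.86, which lay inside the interval of each stretch. In class II a score of 100 was reached by 21 of 48 ASXL1 peaks (43.8%, 30.7 to 57.7; 33.0% of that list). Of the O-GlcNAc peaks there, 8 of 51 reached it (15.7%, 8.17 to 28.0; 21.2% of that list). Each interval included the share of its own list.

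FOXK1 had few peaks in each stretch, and its densities did not separate. The density was 13.1 peaks per Mb in class I (9.06 to 18.3, 34 peaks), 20.0 in class III (10.9 to 33.6, 14 peaks), 20.0 in class II (11.9 to 31.6, 18 peaks) and 26.7 in the gene-rich end (11.5 to 52.5, 8 peaks). The ratios to class I were 1.53 for class III (0.758 to 2.93), 1.53 for class II (0.813 to 2.79) and 2.04 for the gene-rich end (0.816 to 4.49), and each interval included 1.

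**Figure D1:**
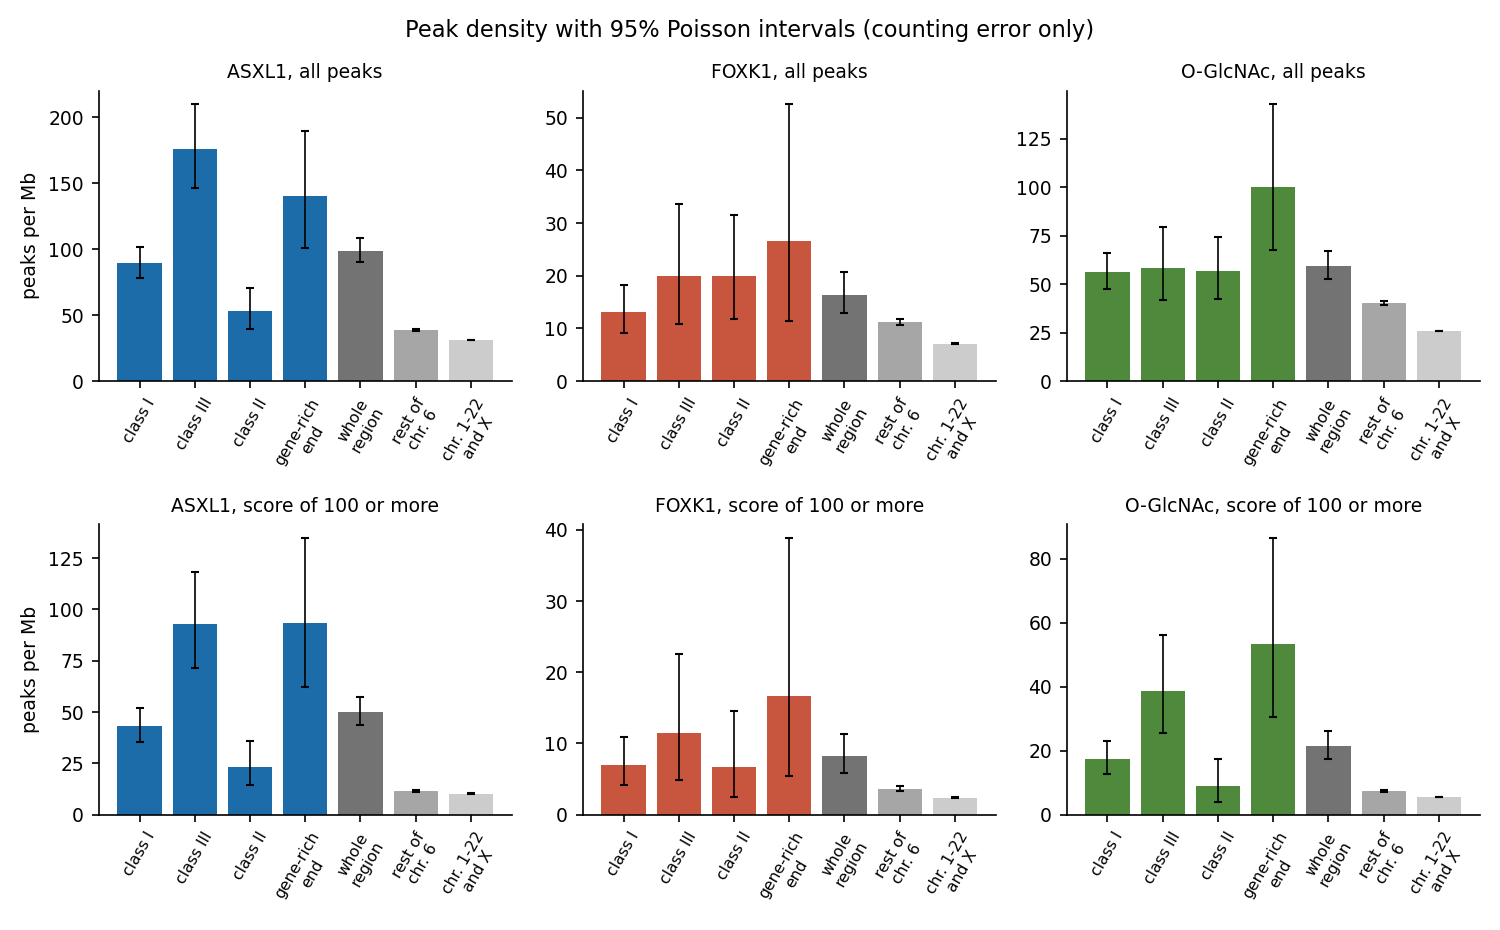
Peaks per Mb of ASXL1, FOXK1 and O-GlcNAc in the 4 stretches (colour), the whole region, the rest of chromosome 6 and chromosomes 1 to 22 and X (grey), for all peaks (upper row) and for peaks with a score of at least 100 (lower row). Bars are densities of 1 library each and lines are 95% Poisson intervals. The ASXL1 bar for class III stands at 176, and O-GlcNAc separates class III from class II only in the lower row (38.6 against 8.89).

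Within the stretches, peaks came in clusters with sparse ground between them. In windows of 100 kb, ASXL1 had 1 to 31 peaks with a median of 10, and 23 of the 45 windows (51.1%) held 10 or more, against 9.13% of windows on the rest of chromosome 6. The densest ASXL1 window was 30500001 to 30600000 in class I, with 31 ASXL1, 4 FOXK1 and 13 O-GlcNAc peaks. O-GlcNAc was densest at 30100001 to 30200000 in class I and at 33200001 to 33300000 in the gene-rich end, with 14 peaks each. FOXK1 had at most 6 peaks in a window, at 28900001 to 29000000 in class I and at 32900001 to 33000000 in class II, and 14 of its 45 windows were empty (31.1%, against 49.5% on the rest of chromosome 6). Every class III window held at least 11 ASXL1 peaks, while those of class II held 1 to 11.

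**Figure D2:**
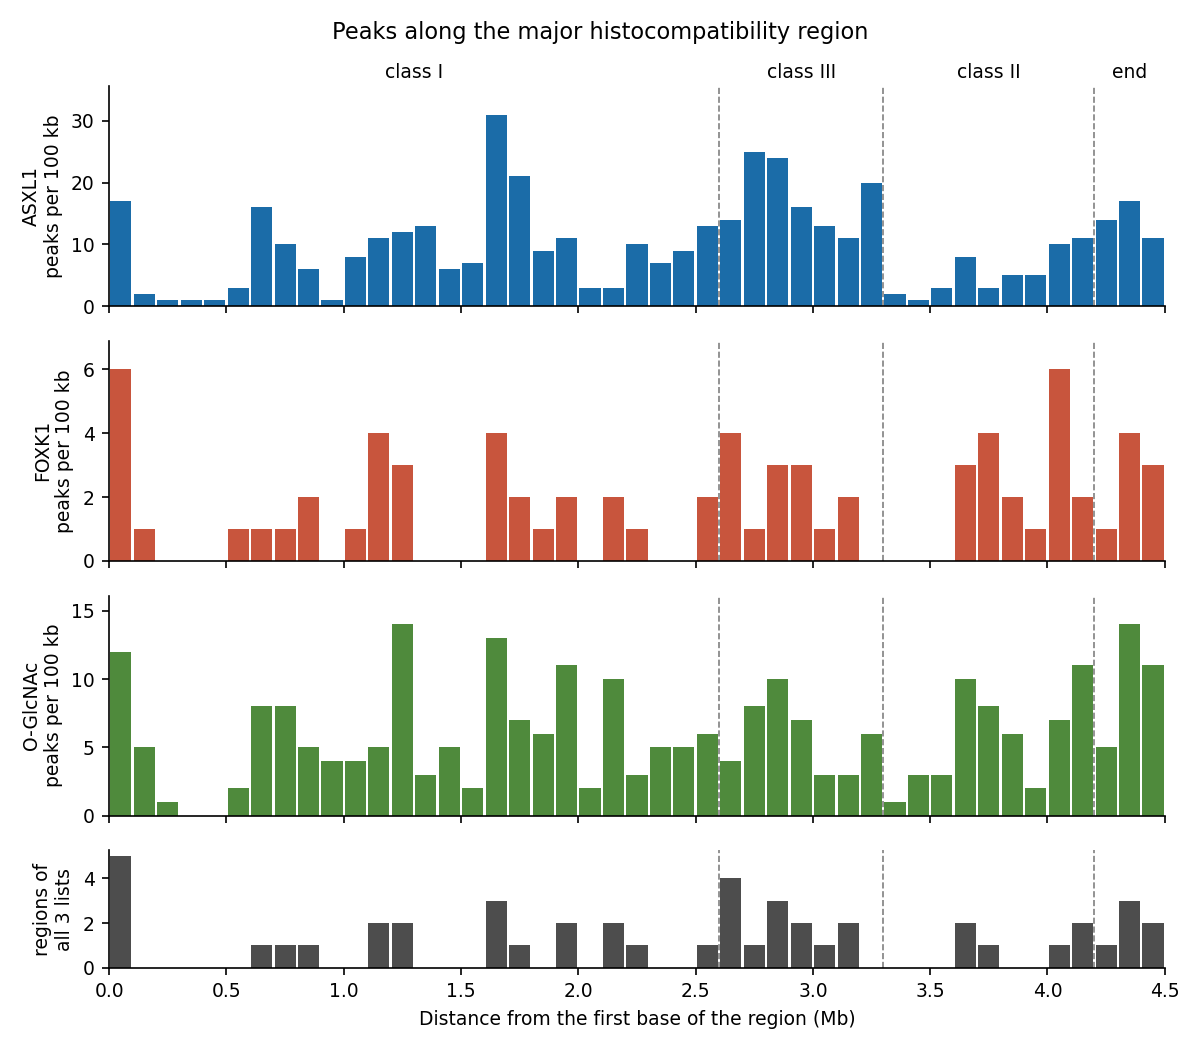
Peaks per 100 kb window for ASXL1, FOXK1 and O-GlcNAc, and regions held by all 3 lists (bottom), against the distance in Mb from the first base of the histocompatibility region; dashed lines part class I, class III, class II and the gene-rich end. ASXL1 counts are at least 11 in every class III window and drop to 1 to 3 in the first 3 windows of class II.

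Long stretches without strong peaks lay in class I and class II. From 29000001 to 29400000 in class I there were 5 ASXL1, 1 FOXK1 and 6 O-GlcNAc peaks, with a highest score of 91.43, 54.45 and 68.43. The longest stretch with no peak of any list lay inside it, at 29138426 to 29299387 (161 kb). From 32200001 to 32800000, the first 600 kb of class II, there were 22 ASXL1, 9 FOXK1 and 31 O-GlcNAc peaks, and the highest scores were 184.55, 110.81 and 121.62. These 2 runs of windows and a run of 300 kb at 30900001 to 31200000 were the longest in which no peak of any list reached a score of 200, a limit chosen after the values had been seen. FOXK1 had no peak for 452 kb at 29031918 to 29483868 and for 438 kb at 32098484 to 32536160. The class II part of this ground was thus not empty, since it held peaks of all 3 lists at low scores.

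Scores in the region were higher than in each list as a whole. The median score was 101 for ASXL1 (list 74.2), 99.5 for FOXK1 (list 76.3) and 76.4 for O-GlcNAc (list 67.1). A score of at least 100 was reached by 226 of the 445 ASXL1 peaks (50.8%, 95% Wilson interval 46.2 to 55.4; 33.0% of the whole list), 37 of the 74 FOXK1 peaks (50%, 38.9 to 61.1; 33.9% of the list) and 96 of the 268 O-GlcNAc peaks (35.8%, 30.3 to 41.7; 21.2% of the list). Among peaks of the middle 50% of their list's widths, the share was 27.0% for ASXL1 (20.98 to 33.9; 20.1% of such peaks in the whole list). It was 30.8% for FOXK1 (16.5 to 49.99; list 27.5%) and 9.68% for O-GlcNAc (5.18 to 17.4; list 6.95%). For these 2 lists the interval thus included the value of the list within that range of widths. Widths inside the range were not matched, and the FOXK1 share rested on 26 peaks.

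Strong O-GlcNAc peaks were most frequent in class III and the gene-rich end and least frequent in class II. In class III 27 of 41 O-GlcNAc peaks scored 100 or more (65.9%, 50.5 to 78.4), in the gene-rich end 16 of 30 (53.3%, 36.1 to 69.8), in class I 45 of 146 (30.8%, 23.9 to 38.7) and in class II 8 of 51 (15.7%, 8.17 to 28.0). The class II interval met that of class I and included the 21.2% of the whole list, and the gene-rich end also met class I. Median widths fell in the same order, at 738, 624.5, 298.5 and 233 bp, and the part of width was not tested. Of the class III O-GlcNAc peaks, 19 (46.3%) belonged to the highest-scoring 10% of the list. For ASXL1 the classes overlapped more, with 52.8% in class III (44.1 to 61.4), 48.3% in class I (41.9 to 54.7), 43.8% in class II (30.7 to 57.7) and 66.7% in the gene-rich end (51.6 to 79.0). For FOXK1 the share was lowest in class II, at 6 of 18 peaks (33.3%, 16.3 to 56.3), and the intervals of all stretches overlapped. None of the 18 class II FOXK1 peaks was in the highest-scoring 10% of its list (0%, 0 to 17.6), and this interval included 10%. The strongest of them had a score of 120.1.

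**Figure D3:**
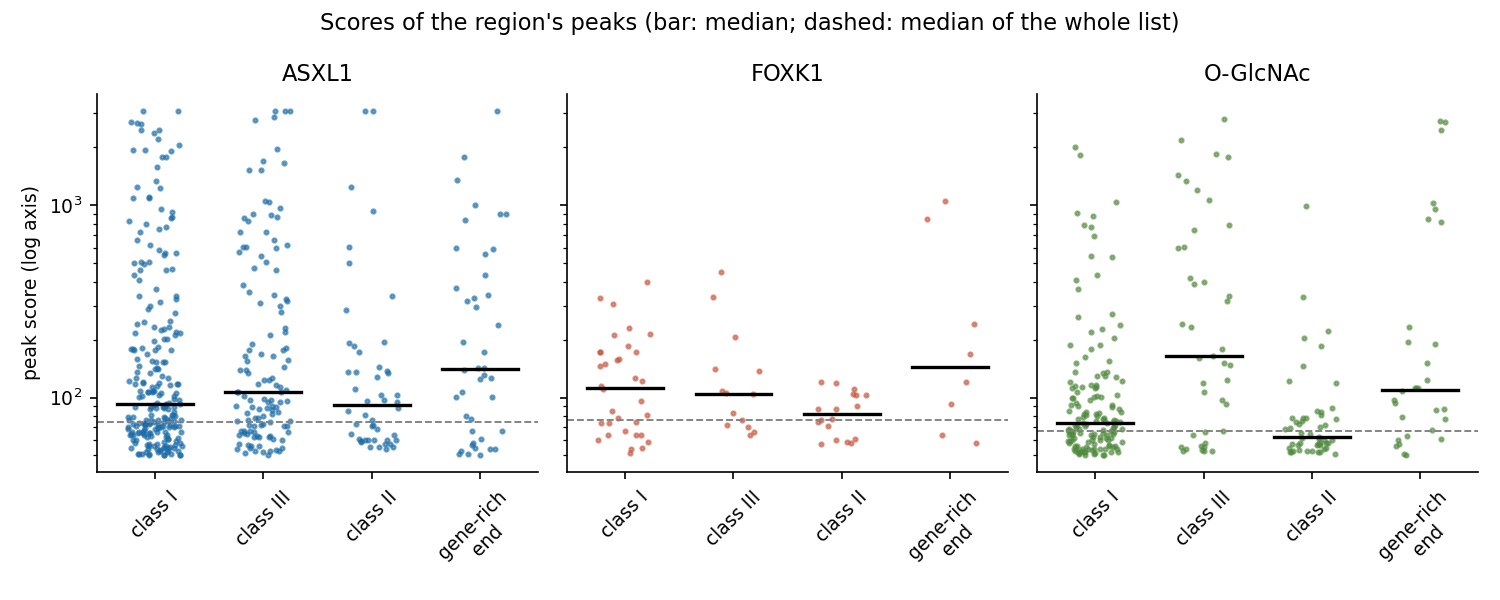
Score of each peak on a log axis, by stretch, for ASXL1, FOXK1 and O-GlcNAc; each point is 1 peak, the bar is the median of the stretch and the dashed line the median of the whole list. The class III bar of O-GlcNAc stands at 165 and its class II bar at 62.4, below the dashed line at 67.1.

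The strongest single peaks of the region lay in different stretches for the 3 lists. Of the ASXL1 peaks, 8 were listed at 3100, a value that many peaks of that list share: 2 in class I, 3 in class III, 2 in class II and 1 in the gene-rich end, so their order is uncertain. The highest FOXK1 score was 1053.18, at 33256781 to 33257714 in the gene-rich end, place 78 of the FOXK1 list, followed by 844.17 at 33239183 to 33240242. The highest O-GlcNAc score was 2802.94, at 31514942 to 31515682 in class III, place 94 of its list, and the next was 2757.29 at 33256656 to 33257895 in the gene-rich end. All 4 of these FOXK1 and O-GlcNAc peaks overlapped peaks of both other lists. In class I the strongest O-GlcNAc peak, 30523610 to 30525696 (2014.12), overlapped an ASXL1 peak only.

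FOXK1 peaks of the region overlapped the other lists more often than FOXK1 peaks elsewhere. An overlap of at least 1 bp with an ASXL1 peak was found for 54 of the 74 FOXK1 peaks (73.0%, 61.9 to 81.8; 42.3% of the whole FOXK1 list). An O-GlcNAc peak was overlapped by 53 of 74 (71.6%, 60.5 to 80.6; 37.8% of the list), and 49 overlapped both (66.2%, 54.9 to 76.0; 28.8% of the list). Higher scores go with more overlap in these lists, so the share was also computed for peaks outside the region given the same scores, with each list cut into 10 equal classes of score. That score-matched share was 48.4% for ASXL1 and 43.2% for O-GlcNAc, and both lay under the intervals observed. On the rest of chromosome 6 the observed shares were 42.6% and 38.5%.

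By stretch, the FOXK1 shares rested on few peaks, and in the overlap with ASXL1 the interval of class III was apart from that of class II alone. All 14 FOXK1 peaks of class III overlapped an ASXL1 peak (100%, 78.5 to 100), and 13 overlapped an O-GlcNAc peak. In class I 25 of 34 overlapped ASXL1 (73.5%, 56.9 to 85.4) and 24 overlapped O-GlcNAc. In class II 9 of 18 overlapped ASXL1 (50%, 29.0 to 71.0) and 10 overlapped O-GlcNAc, and in the gene-rich end 6 of 8 overlapped each (75%, 40.9 to 92.9). The centres of overlapping peaks lay close together, at a median of 74 bp for the 54 FOXK1 peaks with ASXL1 and 88.5 bp for the 53 with O-GlcNAc. The ASXL1 list covered 13.8% of class III and 4.80% of class I, 3.61% of class II and 11.6% of the gene-rich end, against 1.31% of chromosomes 1 to 22 and X, and the part of this coverage in the overlap shares was not tested.

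With all scores counted, O-GlcNAc peaks coincided with ASXL1 in most of class III and seldom in class II. Over the region 150 of the 268 peaks overlapped ASXL1 (56.0%, 49.98 to 61.8; 27.1% of the O-GlcNAc list), against 37.3% for score-matched peaks outside it. The share was 36 of 41 in class III (87.8%, 74.5 to 94.7), 21 of 30 in the gene-rich end (70%, 52.1 to 83.3), 79 of 146 in class I (54.1%, 46.0 to 62.0) and 14 of 51 in class II (27.5%, 17.1 to 40.9). Class II was thus at the level of the whole list, and its interval did not reach those of the other stretches. The score-matched shares were 59.5% in class III and 23.9% in class II. All 27 class III O-GlcNAc peaks with a score of at least 100 overlapped an ASXL1 peak (100%, 87.5 to 100; 73.7% of all O-GlcNAc peaks with such a score). At that score 15 of 16 did so in the gene-rich end (93.8%, 71.7 to 98.9) and 39 of 45 in class I (86.7%, 73.8 to 93.7). In class II it was 6 of 8 (75%, 40.9 to 92.9), and the intervals of all stretches overlapped. A FOXK1 peak was overlapped by 56 of the 268 O-GlcNAc peaks (20.9%, 16.5 to 26.2; 11.1% of the list), against a score-matched 15.3%.

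Seen from ASXL1, the region differed less from the rest of the list. An O-GlcNAc peak was overlapped by 161 of 445 ASXL1 peaks (36.2%, 31.9 to 40.7; 22.4% of the ASXL1 list), and the score-matched share was 32.5%, inside the interval. With both lists held to a score of at least 100 the share was 37.2% (35.7% of that list), and among the 10000 highest-scoring peaks of each list it was 57.0% (46.8 to 66.6; 61.7% of that list), so the share was not distinguishable from the list's in either setting. A FOXK1 peak was overlapped by 61 of 445 (13.7%, 10.8 to 17.2; 10.5% of the list), and the score-matched share was 14.2%. The share with O-GlcNAc was 57.1% in the gene-rich end (42.2 to 70.9), 37.5% in class I (31.5 to 43.9), 30.9% in class III (23.4 to 39.5) and 25% in class II (14.9 to 38.8). The score-matched shares were 38.4%, 31.2%, 35.3% and 26.3% in that order, so the gene-rich end and class I lay above theirs, and in class III and class II the interval included it. Class III therefore joined a high share of O-GlcNAc peaks in ASXL1 with a share of ASXL1 peaks in O-GlcNAc near that of class I, where it had 123 ASXL1 and 41 O-GlcNAc peaks.

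**Figure D4:**
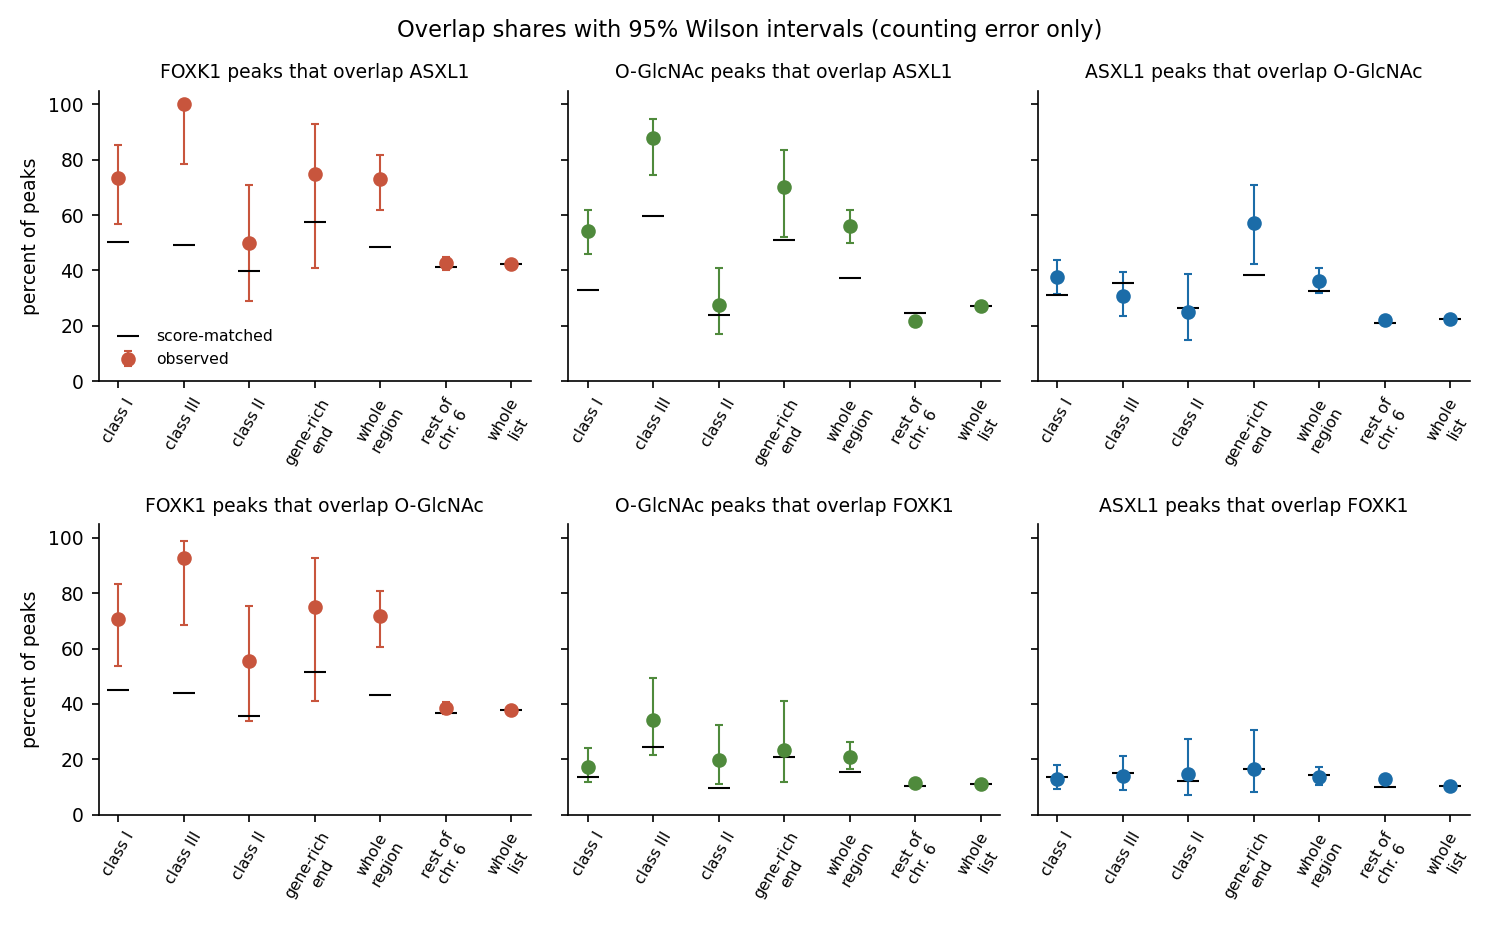
Percent of the peaks of a list that overlap another list by at least 1 bp, in each stretch, the whole region, the rest of chromosome 6 and the whole list, with 95% Wilson intervals (points) and the score-matched share outside the region (dashes). In class III 100% of FOXK1 and 87.8% of O-GlcNAc peaks overlap ASXL1, while the class II points at 50% and 27.5% lie nearer the dashes.

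Chromosome 19, another gene-dense stretch and a comparison chosen after the values had been seen, gave shares in 3 of 6 overlaps whose intervals met those of the region. There 52.1% of the O-GlcNAc list overlapped ASXL1 (50.1 to 54.0) against 56.0% in the region. Of the FOXK1 peaks on chromosome 19, 60.3% overlapped ASXL1 (56.1 to 64.4) against 73.0%, and 62.0% overlapped O-GlcNAc (57.8 to 66.1) against 71.6%. The other 3 shares were lower on chromosome 19, with intervals apart from those of the region: O-GlcNAc in FOXK1 at 14.3% (12.9 to 15.7) against 20.9%, ASXL1 in FOXK1 at 8.14% (7.37 to 8.99) against 13.7%, and ASXL1 in O-GlcNAc at 29.5% (28.2 to 30.9) against 36.2%. FOXK1 itself was denser in the histocompatibility region, with 16.4 peaks per Mb against 9.002 on chromosome 19, and ASXL1 had 98.9 against 73.6.

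FOXK1 and O-GlcNAc peaks that overlapped each other mostly overlapped ASXL1 as well. Of the 53 FOXK1 peaks with an O-GlcNAc overlap, 49 also overlapped ASXL1 (92.5%, 82.1 to 97.0; 76.2% over the whole list), whereas 5 of the 21 without one did (23.8%, 10.6 to 45.1; list 21.7%). Of the O-GlcNAc peaks with a FOXK1 overlap, 52 of 56 overlapped ASXL1 (92.9%, 83.0 to 97.2; list 75.04%), and of those without one, 98 of 212 (46.2%, 39.6 to 52.9; list 21.1%). Merging overlapping peaks across the lists gave 559 regions. All 3 lists held 47 of them (8.41%, 6.38 to 11.002), against 3.90% of the 160271 merged regions of the genome. ASXL1 and O-GlcNAc without FOXK1 held 96 (17.2%, 14.3 to 20.5; 8.48% in the genome). ASXL1 and FOXK1 alone held 4 regions (0.716%, 0.279 to 1.83; 1.73% in the genome), and FOXK1 and O-GlcNAc alone held 4 (0.716%, 0.279 to 1.83; 1.19%), so these shares were not distinguishable from the genome's.

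The 47 places of all 3 lists lay in every stretch. Class I held 22 of them (8.46 per Mb, 5.30 to 12.8), class III 13 (18.6 per Mb, 9.89 to 31.8), class II 6 (6.67 per Mb, 2.45 to 14.5) and the gene-rich end 6 (20.0 per Mb, 7.34 to 43.5). Places held by O-GlcNAc alone showed another order. Class I held 66 (25.4 per Mb, 19.6 to 32.3), class III 5 (7.14 per Mb, 2.32 to 16.7), class II 34 (37.8 per Mb, 26.2 to 52.8) and the gene-rich end 9 (30.0 per Mb, 13.7 to 56.9). In class III 5 of 124 merged regions were held by O-GlcNAc alone (4.03%, 1.73 to 9.09; 34.5% in the genome), against 34 of 91 in class II (37.4%, 28.1 to 47.6), which was at the level of the genome.

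Ranked by the sum of their score ranks, the 5 strongest places of all 3 lists lay in the gene-rich end, class III and class I. The first, 33239168 to 33240769 in the gene-rich end, had an ASXL1 score of 3100, a FOXK1 score of 844.17 and an O-GlcNAc score of 2473.22 and was place 3 of the 6247 such regions of the genome. The next, 31632364 to 31634204 in class III, had 3100, 450.77 and 1783.08 in the same order and was place 11. The third, 33256656 to 33257895 in the gene-rich end, had 598.81, 1053.18 and 2757.29 (place 188), so FOXK1 and O-GlcNAc stood higher there than ASXL1 in their lists. The other two lay at 31514903 to 31515750 in class III (858.74, 334.45 and 2802.94, place 198) and 28907281 to 28909769 in class I (2632.12, 400.12 and 406.38, place 202). The last is the outermost of 5 such places between 28907281 and 28953791, at the edge of class I. In class I the place after it was 30684539 to 30685774 (2710.63, 156.19 and 907.04, place 391).

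Of the 47 places, 11 ranked in the best 10% of such regions in the genome: 5 in class I, 3 in class III, 3 in the gene-rich end and 0 of 6 in class II. The 6 places of class II are too few to tell a count of 0 from a share of 10%. The strongest in class II were 32949255 to 32952870 (3100, 120.1 and 204.4, place 1329) and 33047863 to 33048825 (604.17, 71.48 and 75.15, place 4546). The median O-GlcNAc score of the places was 149.7 in class I, 607.52 in class III, 86.6 in class II and 1658 in the gene-rich end, against 165 in the genome. That of ASXL1 was 388, 1034, 160 and 748 in the same order, against 336. Class II and the gene-rich end rested on 6 places each.

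**Figure D5:**
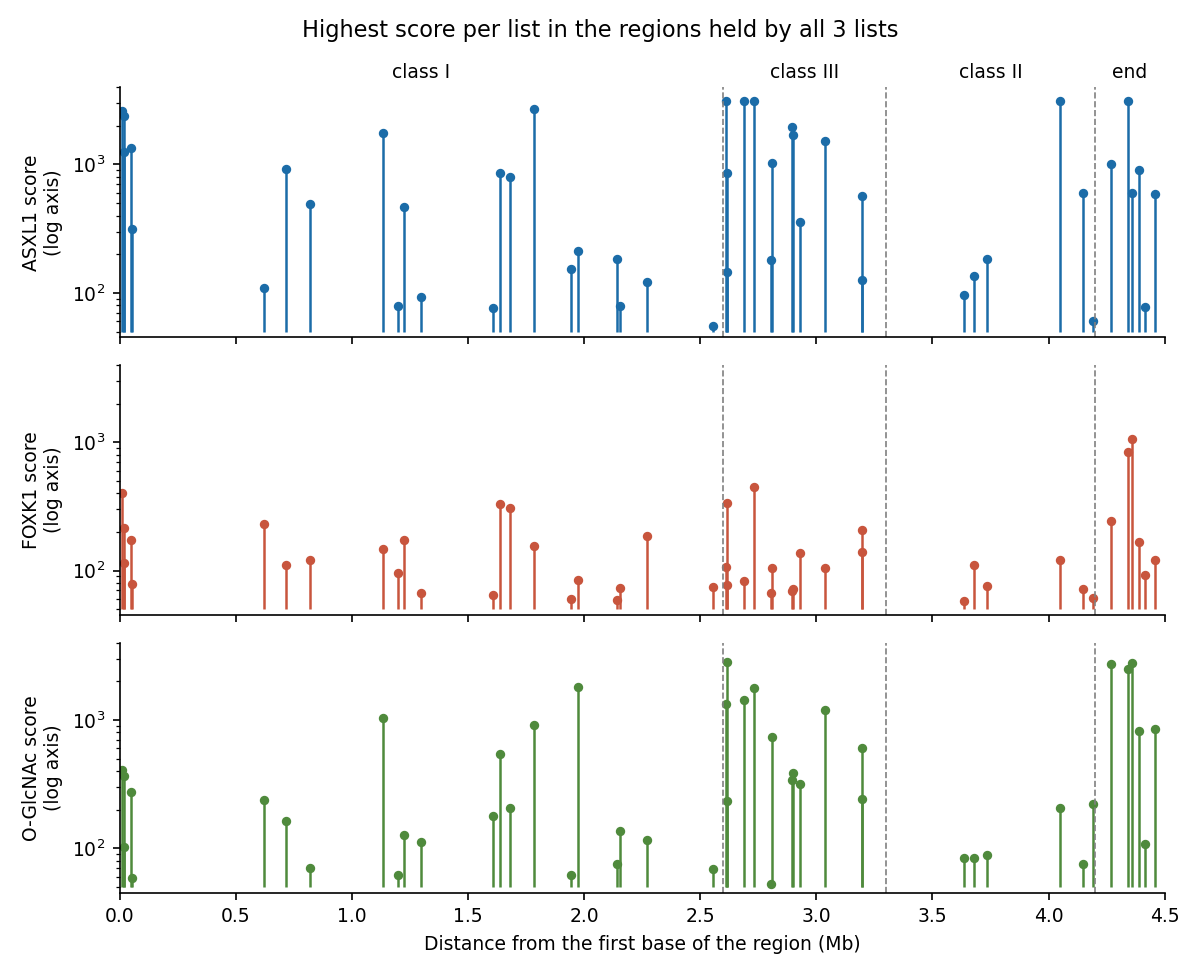
Highest ASXL1, FOXK1 and O-GlcNAc score (log axes) in each of the 47 places held by all 3 lists, against the distance in Mb from the first base of the region; dashed lines part class I, class III, class II and the gene-rich end. FOXK1 scores of class II stay at or under 120.1, and the highest FOXK1 stems, 844.17 and 1053.18, stand in the gene-rich end.

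Near the centromeric side of class II stood a row of wide peaks, where the widest ASXL1 peak and the widest O-GlcNAc peak of the region lay. An O-GlcNAc peak at 32935832 to 32940986 was 5155 bp wide with a score of 990.48, the widest of all 78825 peaks of that list. An ASXL1 peak at 32935198 to 32942712 enclosed it, was 7515 bp wide with a score of 3100 and took place 20 by width among 94237. ASXL1 peaks then continued in a row to 32952857, among them 32943617 to 32945781 (339.04) and 32947374 to 32949106 (935.11), which overlapped neither other list. The last, 32949255 to 32952857 (3603 bp, score 3100), overlapped 3 FOXK1 peaks with scores of 90.58 to 120.1 and 2 O-GlcNAc peaks of 54.83 and 204.4. Within the row ASXL1 was thus listed at 3100 at either end, whereas the strong O-GlcNAc peak lay at the first end and the FOXK1 peaks at the last. These peaks were singled out after their widths had been seen.

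Peaks that overlapped no other list had lower median scores in all 3 lists. In the region 278 of 445 ASXL1 peaks overlapped neither other list (62.5%; 74.2% of the whole list), with a median score of 75.7 against 337 for the others. For O-GlcNAc the number was 114 of 268 (42.5%; 70.1% of the list), with medians of 61.4 and 113. For FOXK1 it was 16 of 74 (21.6%; 48.7% of the list), with medians of 75.5 and 106. A few lone ASXL1 peaks were strong, the highest at 30691276 to 30694803 (score 2051.64) and 30567919 to 30570358 (1943), both in class I, whereas no lone O-GlcNAc peak exceeded 232.23. The highest lone FOXK1 peaks also lay in class I, at 29932580 to 29933151 (210.64), 30675068 to 30675447 (171.89) and 30137600 to 30138071 (148.85). Class III had 0 lone FOXK1 peaks, class I 8, class II 6 and the gene-rich end 2.

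At the outer borders, the nearest peaks on either side of the first base differed in direction between the lists, and at the last base the inner peak scored higher in each list. The ASXL1 peak just outside the first base, 28890895 to 28892193, had a score of 894.52 and the one just inside, 28907281 to 28908606, 179.85. For FOXK1 the scores were 92.32 outside (28863830 to 28865378) and 400.12 inside (28908182 to 28909690), and for O-GlcNAc 83.66 outside and 56.29 inside. At the last base the scores inside and outside were 130.84 and 50.52 for ASXL1, 120.67 and 53.6 for FOXK1, and 232.23 and 53.18 for O-GlcNAc. The next FOXK1 peak beyond that base began at 33855368.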

How the data were processed

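Peaks of 3 ChIP-seq libraries, 1 per antibody, were analysed, and the 2 inputs served only as the authors' controls. Per the labels' protocols, fixation was in 1% formaldehyde (10 min), fragments averaged 150 to 400 bp, and library fragments of 250 to 350 bp had 18 PCR cycles. Bowtie2 2.0.0, MACS 1.4 and hg19 are named in the submitters' processing notes, and settings, read filters and depth are not given in the sources used here, so the depth behind a peak is unknown. The deposited value of a peak is the score of the authors' peak caller, which is the authors' own and was not recomputed. Each list was called on a single library, not on pooled ones. No list had a peak on a haplotype contig of chromosome 6 (0 in each), and how well reads map to the variable HLA genes was not analysed here.

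Densities have exact 95% Poisson intervals, density ratios exact conditional binomial intervals and shares 95% Wilson intervals. The length of a chromosome was its highest peak end in the 3 lists. A peak was shared when it overlapped another list by at least 1 bp, and merged regions were peaks linked by such overlaps. Score-matched shares weighted the rates outside the region, in 10 equal classes of score, by the region's peaks. No p-value was computed, since each antibody had 1 library. Positions to be named were, per stretch, the 2 highest-scoring peaks of each list and the 2 places of all 3 lists lowest in summed score ranks. To these came the 5 lowest over the region, the densest windows, the longest gap and the peaks at the outer borders. Not all of these positions are given in the text. Other positions were singled out after their values had been seen: the lone peaks, the widest peaks, the quiet runs, the FOXK1 gaps and the peaks on the row in class II. The members, gene lists and comparisons were chosen with earlier results of these data known. The score-matched shares, chromosome 19, the 4.5 Mb grid and the overlaps conditional on the other list were added after values had been seen. The scripts were tested on simulated data. Python 3.11.15, numpy 2.4.6, pandas 2.3.3 and scipy 1.17.1 were used. No sequence is printed, because no genome of hg19 was used here.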

Additional observations from a re-analysis of the deposited data

How the results depend on the processing

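Of 106 values recomputed for 22 results, 76 stayed inside the interval of the reported value (or, for a count, within 1.5 times) and 30 moved. Ratios to class I whose reported interval included 1 crossed it in places: FOXK1 in class II gave 0.963 at a score of at least 100, and O-GlcNAc gave 0.951 in class II with the inner borders 50 kb down, and in class III 0.915 without the widest 1% of peaks and 0.965 with the borders 50 kb up. Moving the inner borders by 50 kb, asking for an overlap of 50% of the shorter peak or for centres within 500 bp moved none. A score of at least 100 gave 50.2 ASXL1, 8.22 FOXK1 and 21.3 O-GlcNAc peaks per Mb, and the 10000 highest-scoring peaks of each list gave 20.7, 10.0 and 14.7, since fewer peaks were counted. Against the rest of chromosomes 1 to 22 and X the ratios were then 4.94, 3.46 and 3.90, and 6.33, 3.08 and 4.48. Counting ASXL1 peaks closer than 1000 bp as 1 gave 62.4 per Mb, 2.61 times the rest. The O-GlcNAc ratio of class III to class I was 2.23 at a score of at least 100 and 3.57 among the 10000 highest, that of class II 0.514 and 0.693 (below 1, against 1.01 as reported), and that of the gene-rich end 3.08 and 3.81. The ASXL1 ratio of class II to class I was 0.377 among the 10000 highest. For these moves the cause was not tested.

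The share of FOXK1 in ASXL1 was 83.8% at a score of at least 100 (51.7% of that list) and 60% among the 10000 highest (22.4%), and of FOXK1 in O-GlcNAc 57.8% among the 10000 highest (27.0%). The share of O-GlcNAc in ASXL1 was 82.3% (66.0%) and 78.8% (62.6%). Without the widest 1% of peaks it was 49.0%, and the share of the whole list was not computed in that setting. O-GlcNAc in FOXK1 was 29.2% (18.4%) and 40.9% (27.5%). Among the 10000 highest, ASXL1 in FOXK1 was 29.0% (22.7%) and ASXL1 in O-GlcNAc 57.0% (61.7%, inside the interval of 46.8 to 66.6). ASXL1 in O-GlcNAc was 31.7% without the widest 1% of peaks, again with no share of the list computed. In the middle 50% of widths the share of scores of at least 100 was 27.0%, 30.8% and 9.68% for ASXL1, FOXK1 and O-GlcNAc. The regions held by all 3 lists numbered 26 at a score of at least 100 and 21 among the 10000 highest. No paired analysis was possible because the 3 antibodies had 1 library each. Depth is unknown, so weak and absent peaks cannot be told apart.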
